A study of Mus musculus with 4 samples.

Results

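Open chromatin sites lying at the end of a single protein-coding gene and listed in 3 of the 4 libraries of this ATAC-seq series numbered 385, at 385 different genes. They were selected on the deposited lists themselves. A summit of CD93-positive replicate 2 on chromosomes 1 to 19 or X was taken when it lay within 1000 bp of an end of exactly 1 protein-coding gene and within 250 bp of a summit in both CD93-negative lists. They made up 54.1% of all summits of CD93-positive replicate 2, 701 of which lay on those chromosomes (exact Clopper-Pearson 95% interval 50.4 to 57.9) and 81.9% of its 470 summits at the end of exactly 1 gene (78.1 to 85.3). The 4 lists together held 11476 summits. These sites are called common sites below. Their counterpart is the 1261 sites, at 1261 genes, that met the same gene-end rule and were shared within 250 bp by the CD93-negative lists with no CD93-positive replicate 2 summit within 250 bp, called comparison sites and placed at the CD93-negative replicate 2 summit. No gene was in both sets, although 6 of the comparison genes had a gene-end summit of CD93-positive replicate 2 farther away than 250 bp.

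The libraries came from haematopoietic stem cells (HSCs) of male C57BL/6 mice, wild type and 8 weeks old, with no treatment named. Marrow of pooled femora and tibia was depleted of lineage-positive cells, and HSCs were sorted as LSK cells, which lack lineage markers and carry Sca-1 and Kit, that were also CD34-, Flt3-, CD48- and Slam1+, then divided into a CD93+ and a CD93- fraction with 2 libraries each. The labels do not say whether the 2 libraries of a fraction came from separate mice, so the spread between them may be technical. No library was tested against another here, because the sites were chosen by their presence in these same lists; counts, ranks and shares are given as descriptions.

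ATAC-seq uses the Tn5 transposase to cut DNA where it is not wrapped around nucleosomes, and a summit is the base where the cutting piles up highest. Promoters of widely expressed genes are usually open in most cell types, and many lie in CpG islands, stretches rich in G, C and the CpG dinucleotide that are kept free of DNA methylation. HSCs are mostly resting cells that renew themselves and give rise to all blood lineages, and much of the chromatin that sets them apart from other cells lies at enhancers away from gene ends.

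The promoters of 6 genes are printed because they span the range of the ranks described below. Atp2b1, Rad23b, Cacybp and Atf2 were among the 10 common sites that scored highest in CD93-positive replicate 2. Klf13 ranked much higher there than in CD93-negative replicate 2, and Dnajc13 much lower there than in both CD93-negative lists. Each window runs from 250 bases before to 50 bases after a listed gene start, was taken from RefSeq (GRCm38.p6) and reads 5′ to 3′ along the gene. The windows are chr10:98914392-98914691 on the + strand for Atp2b1, chr4:55349792-55350091 on the + strand for Rad23b, chr1:160212843-160213142 on the - strand for Cacybp, chr2:73892590-73892889 on the - strand for Atf2, chr7:63938866-63939165 on the - strand for Klf13 and chr9:104262881-104263180 on the - strand for Dnajc13. Capitals mark matches to 5 of the motifs searched, on either strand.
Atp2b1: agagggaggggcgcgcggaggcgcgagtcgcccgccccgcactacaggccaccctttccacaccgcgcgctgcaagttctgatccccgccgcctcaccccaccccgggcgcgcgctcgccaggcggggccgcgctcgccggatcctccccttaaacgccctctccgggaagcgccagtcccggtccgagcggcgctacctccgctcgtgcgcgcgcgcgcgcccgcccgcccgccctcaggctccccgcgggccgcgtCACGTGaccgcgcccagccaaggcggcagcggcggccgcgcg
Rad23b: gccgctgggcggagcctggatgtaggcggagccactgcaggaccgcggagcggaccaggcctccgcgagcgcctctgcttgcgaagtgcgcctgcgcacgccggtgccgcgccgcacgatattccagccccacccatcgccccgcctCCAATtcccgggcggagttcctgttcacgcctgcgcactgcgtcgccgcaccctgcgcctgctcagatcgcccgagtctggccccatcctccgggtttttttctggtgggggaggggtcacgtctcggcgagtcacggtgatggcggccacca
Cacybp: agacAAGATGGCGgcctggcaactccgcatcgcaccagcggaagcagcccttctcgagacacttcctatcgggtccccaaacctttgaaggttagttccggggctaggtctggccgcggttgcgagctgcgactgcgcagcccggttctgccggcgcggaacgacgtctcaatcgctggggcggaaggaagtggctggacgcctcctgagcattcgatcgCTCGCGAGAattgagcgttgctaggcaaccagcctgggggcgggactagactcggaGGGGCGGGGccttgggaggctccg
Atf2: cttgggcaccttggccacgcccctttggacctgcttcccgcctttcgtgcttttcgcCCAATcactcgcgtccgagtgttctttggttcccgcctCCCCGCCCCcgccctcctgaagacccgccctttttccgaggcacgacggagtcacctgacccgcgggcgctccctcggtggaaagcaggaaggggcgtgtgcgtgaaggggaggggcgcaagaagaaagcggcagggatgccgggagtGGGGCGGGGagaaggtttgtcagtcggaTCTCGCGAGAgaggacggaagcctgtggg
Klf13: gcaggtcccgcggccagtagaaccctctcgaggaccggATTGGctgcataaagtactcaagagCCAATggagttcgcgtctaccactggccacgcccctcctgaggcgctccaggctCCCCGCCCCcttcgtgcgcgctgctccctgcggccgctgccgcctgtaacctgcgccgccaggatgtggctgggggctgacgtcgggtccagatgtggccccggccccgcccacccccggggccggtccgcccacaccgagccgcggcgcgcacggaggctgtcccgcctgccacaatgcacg
Dnajc13: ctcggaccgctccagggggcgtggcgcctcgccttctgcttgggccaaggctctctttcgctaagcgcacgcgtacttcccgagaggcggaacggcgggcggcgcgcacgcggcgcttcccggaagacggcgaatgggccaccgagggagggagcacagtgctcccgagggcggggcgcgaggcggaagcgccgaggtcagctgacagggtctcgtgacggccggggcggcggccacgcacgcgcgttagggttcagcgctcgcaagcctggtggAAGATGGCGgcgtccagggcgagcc

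In Atp2b1 the capitals are an E-box at bases 259 to 264, and the CD93-positive replicate 2 summit fell on base 58. Rad23b held a CCAAT box at bases 148 to 152, with the summit on base 107. Cacybp held a YY1 match at bases 5 to 13, a ZBTB33 match at bases 221 to 229, close to the summit on base 210, and a GC box of the SP and KLF factors at bases 277 to 285. In Atf2 a CCAAT box at bases 58 to 62, GC boxes at bases 96 to 104 and 244 to 252 and overlapping ZBTB33 matches at bases 272 to 281 are marked, and the summit was on base 29. Klf13 held CCAAT boxes on opposite strands at bases 39 to 43 and 64 to 68, on either side of the summit on base 53, and a GC box at bases 118 to 126. Dnajc13 held a YY1 match at bases 276 to 284, past the gene start, and its summit was on base 208. A match is a description of the letters and not of bound factor.

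The lists differed in length, with 18 and 701 summits on chromosomes 1 to 19 and X for CD93-positive replicates 1 and 2 and 7977 and 2748 for CD93-negative replicates 1 and 2, and the read depth behind each is unknown. CD93-positive replicate 1 stood apart, and the common sites were therefore defined without it. Its summits came within 250 bp of 1 common site, at Bnip3l, and of 0 comparison sites. The deposited score of a summit is the authors' own value, read as the −log10 of the caller's p or q, and is not scaled between libraries. Ranks within each list were therefore used, as the percentile of a summit in its own whole list, where 100 is the highest score. A percentile depends on the length of the list, so percentiles of 1 list compare sites, while percentiles of different lists are not on 1 scale.

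Common sites ranked above comparison sites in both CD93-negative lists. Their median percentile was 53.9 in CD93-positive replicate 2 (quartiles 29.1 and 75.8), 93.9 in CD93-negative replicate 1 (84.7 and 97.5) and 79.2 in CD93-negative replicate 2 (58.3 and 91.4). Comparison sites had medians of 72.3 (53.4 and 86.8) and 44.9 (23.7 and 67.0) in the CD93-negative lists, lower than the common sites in both. In scores, the lowest, median and highest values of the common sites were 3.09, 8.51 and 38.6 in CD93-positive replicate 2, 12, 62.3 and 140.4 in CD93-negative replicate 1 and 4.35, 14.4 and 34 in CD93-negative replicate 2. The median scores of the comparison sites were 33.4 and 9.14 in CD93-negative replicates 1 and 2. The sets overlapped widely in both lists, with comparison sites reaching percentiles of 99.8 and 99.2. Percentiles of the common sites differed between lists of unlike length. When each CD93-negative list was cut from the top to the length of the CD93-positive replicate 2 list, 165 common sites were left. Their median percentiles in CD93-positive replicate 2, CD93-negative replicate 1 and CD93-negative replicate 2 were 67.5, 71.7 and 67.8. The cut changed the sites as well as the lengths, and the median rose in the uncut CD93-positive replicate 2 list too. The parts of length and of the choice of sites cannot be told apart here.

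**Figure D1:**
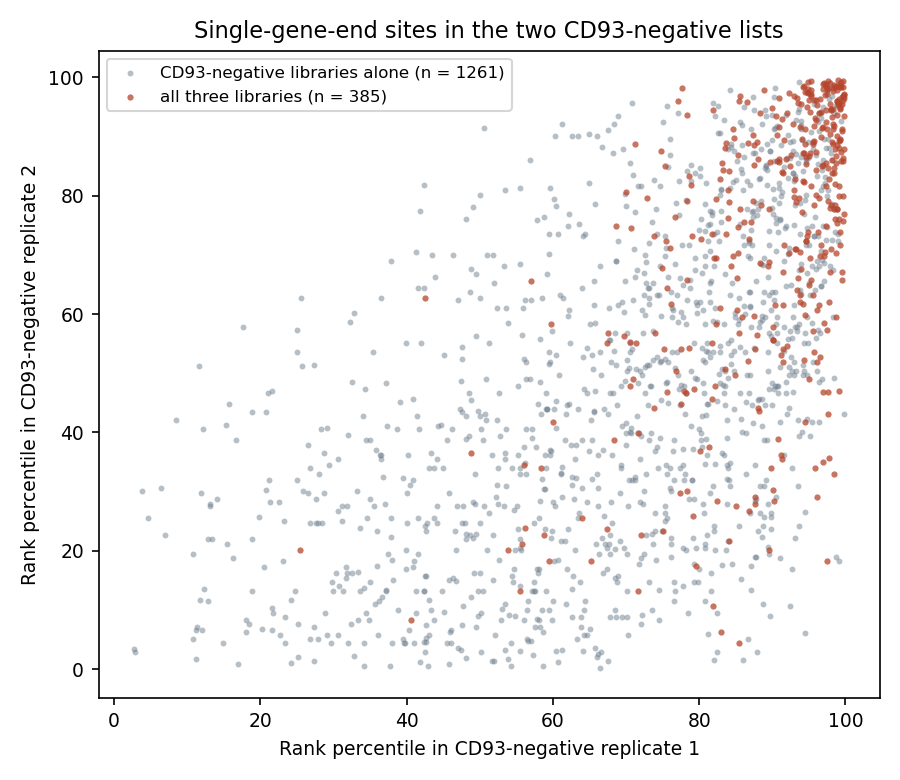
Rank percentile of each site in CD93-negative replicate 1 (x axis) and CD93-negative replicate 2 (y axis), from 0 to 100 with 100 the highest score; red points are the 385 common sites and grey points the 1261 comparison sites. Red points gather at the upper right, with medians of 93.9 and 79.2 against 72.3 and 44.9 for the grey points.

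Of the 385 common sites, 242 were at or above the 90th percentile of CD93-negative replicate 1, or 62.9% (57.8 to 67.7), and 107 at or above that of CD93-negative replicate 2, or 27.8% (23.4 to 32.6). In CD93-positive replicate 2 itself 34 of them, or 8.83% (6.19 to 12.1), were that high. Among comparison sites the shares were 17.4% (15.3 to 19.6) and 5.23% (4.07 to 6.61). All but 4 common sites were in the upper part of CD93-negative replicate 1, with 381 at or above its 50th percentile.

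Gene-end sites of higher CD93-negative rank were more often listed in CD93-positive replicate 2. Of 1644 single-gene-end sites shared by the CD93-negative lists, 383 had a CD93-positive replicate 2 summit within 250 bp, or 23.3% (21.3 to 25.4). Grouped by the lower of their CD93-negative percentiles, the share was 4.5% (17 of 378) under 25, 10.7% (46 of 428) from 25 to 50, 23.9% (106 of 443) from 50 to 75, 44.7% (118 of 264) from 75 to 90, 68.1% (49 of 72) from 90 to 95 and 79.7% (47 of 59, interval 67.2 to 89.0) from 95 upward. Among the highest, 12 sites were at or above the 95th percentile in both CD93-negative lists and yet had no CD93-positive replicate 2 summit. Intervals of shares treat sites as independent and cover counting error only.

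**Figure D2:**
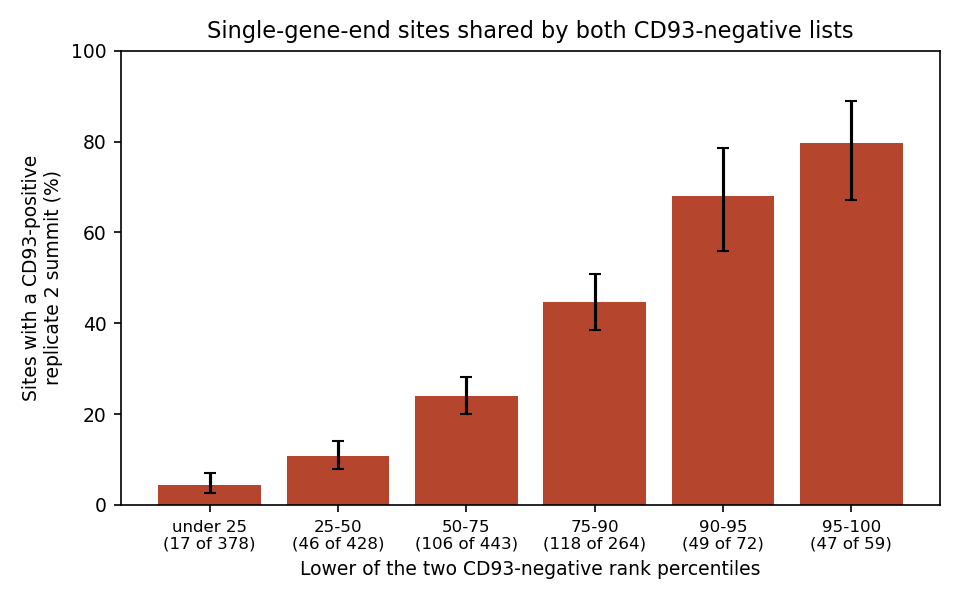
Share of the single-gene-end sites shared by both CD93-negative lists that had a CD93-positive replicate 2 summit within 250 bp (y axis, percent), by the lower of the site's CD93-negative rank percentiles (x axis); bars are shares and error bars exact 95% intervals. The share runs from 4.5% in the lowest band to 79.7% in the highest.

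Within the common sites the order of scores was related between lists but far from the same. Spearman's rho over the 385 sites was 0.549 between CD93-positive replicate 2 and CD93-negative replicate 1, 0.288 between CD93-positive replicate 2 and CD93-negative replicate 2, and 0.524 between the CD93-negative lists. Over the comparison sites rho between the CD93-negative lists was 0.569. These correlations run across sites that share libraries and base composition, and are given without a test.

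**Figure D3:**
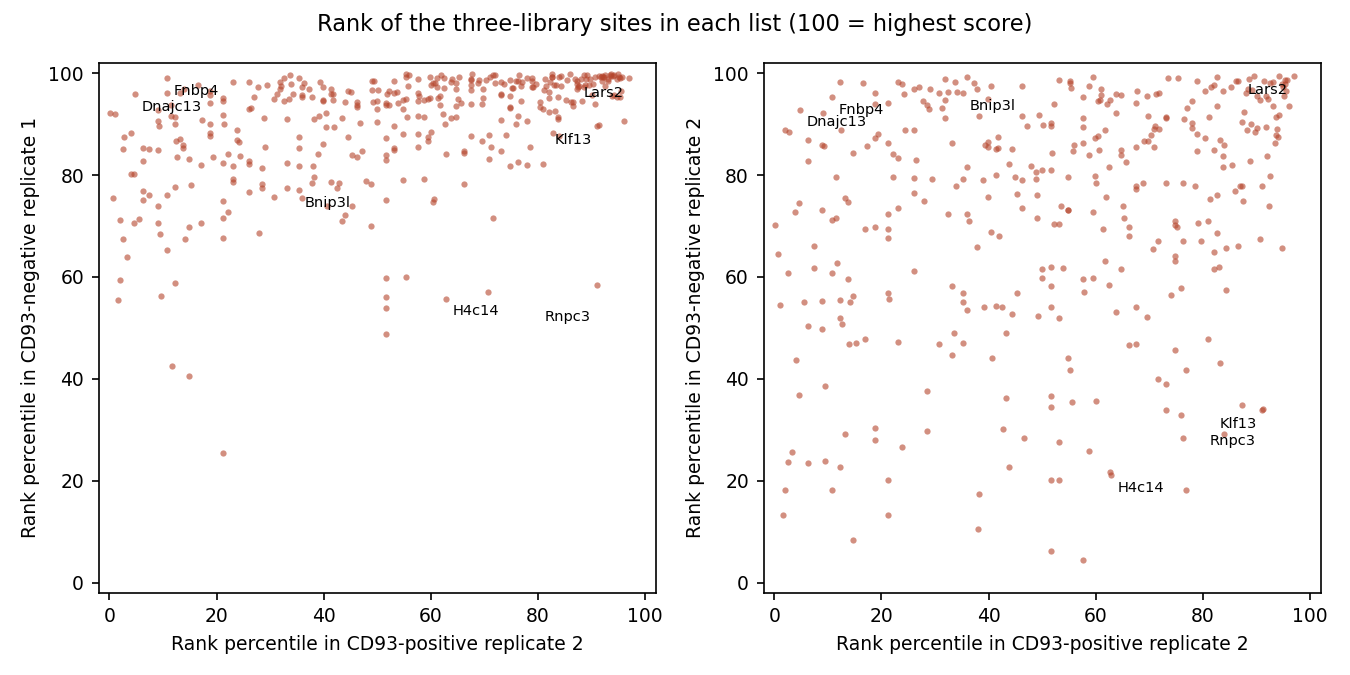
Rank percentile of each common site in CD93-positive replicate 2 (x axis) against CD93-negative replicate 1 (y axis, left) and CD93-negative replicate 2 (y axis, right); each point is 1 of 385 sites and some named genes are labelled. Lars2 is at the upper right in both panels, Dnajc13 and Fnbp4 at the upper left, and Klf13 and Rnpc3 at the lower right of the right panel.

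In CD93-positive replicate 2 the common site with the top score was at Lars2, the mitochondrial leucyl-tRNA synthetase, at base 123462025 of chromosome 9, 650 bp inside the 3′ end of the gene. Its score was 38.6 in CD93-positive replicate 2, 95 in CD93-negative replicate 1 and 34 in CD93-negative replicate 2, which put it at percentiles of 97.1, 99 and 99.5. The summits agreed to within 35 bp. It was the one common site of known strand that lay at a 3′ end. Regions prone to artefactual signal were not marked here, and whether this site lies in one was not tested.

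The next 9 by score in CD93-positive replicate 2 served varied housekeeping and signalling roles. Atp2b1 encodes a plasma membrane calcium pump and scored 24.3, 54.7 and 19.8 in CD93-positive replicate 2, CD93-negative replicate 1 and CD93-negative replicate 2, the order used from here on. Rad23b, which binds damaged DNA and delivers ubiquitinated proteins to the proteasome, scored 21.9, 99.4 and 27.4. Cacybp, a calcyclin-binding protein, scored 21.7, 73.0 and 22.7. Ripk2, the kinase of NOD receptor signalling, and Atf2, a transcription factor of the CREB and AP-1 group, lay close behind in CD93-positive replicate 2 at 21.6 and 21.5. Ripk2 reached 95.1 and 27.1 in the CD93-negative lists and Atf2 67.6 and 24.8. Nmt2, which attaches myristate to proteins, scored 21.0, 97.5 and 21.4, and Klf6, a zinc finger transcription factor, 20.4, 124.3 and 23.6. Stt3b, a catalytic subunit of the oligosaccharyltransferase that glycosylates proteins in the endoplasmic reticulum, scored 19.9, 67.3 and 11.9, and Tmem123, a membrane glycoprotein, 19.9, 91.5 and 24.7. Stt3b was the one of these 10 under the 90th percentile of a list, at 65.7 in CD93-negative replicate 2.

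In all, 20 common sites were at or above the 90th percentile of each of the 3 lists, or 5.19% (3.20 to 7.91). With lists cut to equal length 3 sites were. Besides Lars2, Atp2b1, Rad23b, Cacybp, Ripk2, Atf2, Nmt2, Klf6 and Tmem123 they were at Larp1b, Mrpl17, Adss, Rab1a, Rmnd5a, Amz2, Hsp90aa1, Nabp1, Ep400, Eif5 and Khsrp. Larp1b, a La-related RNA-binding protein, scored 19.6, 118.1 and 30.9, and Adss, which makes adenylosuccinate on the way to AMP, 17.8, 92.8 and 19.8. Rab1a, the small GTPase of transport from the endoplasmic reticulum to the Golgi, scored 17.8, 88.0 and 25.9, and Hsp90aa1, the inducible cytosolic HSP90, 16.7, 103.0 and 20.7.

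Some common sites ranked above the mean of their CD93-negative percentiles in CD93-positive replicate 2. The greatest difference was at Rnpc3, a protein of the minor spliceosome, with scores of 16.0, 24.6 and 8.01 and percentiles of 91.0, 58.4 and 34. Klf13, a zinc finger factor of the GC box, scored 16.2, 52.9 and 8.02, at percentiles of 91.3, 89.9 and 34.1. Usp25, a deubiquitinase, had percentiles of 84.0, 87.7 and 29.2. H4c14, a histone H4 gene, had 62.9, 55.8 and 21.1, and Rsrp1, an arginine- and serine-rich protein, 87.2, 96.9 and 34.9. At Klf13, Usp25 and Rsrp1 the low rank was in CD93-negative replicate 2, while the percentile in CD93-negative replicate 1 was near or above that in CD93-positive replicate 2. With the lists cut to equal length, Rnpc3, Klf13, Usp25, H4c14 and Rsrp1 were no longer common sites.

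Other sites had low percentiles in CD93-positive replicate 2 and high ones in the longer CD93-negative lists. Dnajc13, an endosomal J-domain protein, scored 4.12, 69.9 and 19.3, at percentiles of 4.78, 95.9 and 92.9. Fnbp4, a formin-binding protein, scored 4.85, 93.9 and 21.0, and B4galt1, a Golgi galactosyltransferase, 3.55, 49.3 and 17.4. Arid4a, a retinoblastoma-binding chromatin protein, and Mtmr4, a phosphoinositide phosphatase, had CD93-positive replicate 2 percentiles of 9.14 and 16.6 and CD93-negative percentiles of 92.2 or more. In all, 28 sites, 7.27% (4.89 to 10.3), were under the 50th percentile of CD93-positive replicate 2 and at or above the 90th of both CD93-negative lists. Stat3, the transcription factor activated by cytokine receptors, was among them, with scores of 6.64, 75.5 and 27.7. With the lists cut to equal length 1 site met these limits. Dnajc13 was then at percentiles of 4.78, 54.1 and 72.3, Fnbp4 at 10.8, 88.3 and 81.7, Mtmr4 at 16.6, 73.3 and 92.8 and Arid4a at 9.14, 19.1 and 69.8, and B4galt1 was no longer a common site.

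Bnip3l, a mitochondrial receptor for autophagy, was the single common site near a summit of CD93-positive replicate 1. It scored 4.71 in that library, and 6.94, 37.2 and 22.0 in the other 3. The CD93-positive replicate 1 summit, on chromosome 14, was 89 bp from that of CD93-positive replicate 2 at base 67008838.

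The genes were sorted into 41 families and marker lists, of which the 35 families were found by symbol, and 4 more lists were added after the genes at these sites had been seen. Of all 21627 protein-coding genes on chromosomes 1 to 19 and X, 1.78% had a common site, 5.83% a comparison site and 22.2% a single-gene-end summit in CD93-negative replicate 1. Of the 4806 genes with such a summit, 384, or 7.99%, had a common site. Of the 1646 genes in either set, 385, or 23.4%, had a common site. Lists are set beside these shares as counts; 113 of the 385 genes were in one of the 41 lists and 137 with the added ones, so most genes at common sites belonged to no list. Among the 41 lists, the interval of a list's share among the genes in either set lay above 23.4% for heat-shock chaperones and deubiquitinases. It spanned 23.4% for the others of the 41 with a gene in either set. List shares were not matched for CD93-negative rank, with which the share of common sites rose, and the part of rank was not tested. The added lists were drawn up after the genes were seen, so their intervals carry no weight beside 23.4%. That of protein phosphatases, 25.7 to 70.2, lay above it and those of the other added lists spanned it. With 45 lists set side by side and no test, this is a description.

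Among the 41 lists, heat-shock chaperones had the most genes at common sites by count but not by share. Of the chaperone genes 9.89% had a common site. The share was higher for immediate-early and Krüppel-like factors (14.3%), deubiquitinases (11.9%) and megakaryocyte and erythroid markers (10.0%). Heat-shock chaperones and their partners had common sites at 9 of 91 genes and comparison sites at 9, so that 50.0% of the 18 (26.0 to 74.0) were common. Dnajb9, a J-domain protein of the endoplasmic reticulum, scored 17.2, 116.9 and 14.6, and Dnajc3, which restrains eIF2α kinases, 13.8, 61.0 and 12. Hspa8, the constitutive cytosolic HSP70, scored 12.5, 79.0 and 23.6, and Hspa5, the HSP70 of the endoplasmic reticulum, 11.6, 95.4 and 17.3. The others were Hsp90aa1, Dnajb1, Tcp1, Hspbp1 and Dnajc13. Comparison sites included the mitochondrial HSP70 gene Hspa9 and the chaperonin genes Cct4 and Cct8. The unfolded protein response list, one of those added, had 8 of 39 genes at common and 11 at comparison sites. Its common sites included Eif2ak3, the kinase PERK, at 12.7, 50.2 and 12.4, and Calr, the chaperone calreticulin, at 10.1, 92.5 and 14.1. The comparison sites held the sensor Ern1 and the transcription factors Atf4 and Xbp1.

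Counts of ubiquitin genes are given by class. The intervals of the classes overlapped, and all but that of the deubiquitinases spanned the 23.4% over all genes in either set. Of 67 deubiquitinases 8 had common and 6 comparison sites, or 57.1% (28.9 to 82.3) common. With gene starts only 5 deubiquitinases had common sites, and with lists cut to equal length 3 did. Usp28, which acts on MYC, scored 14.6, 92.5 and 22.0, Usp22, the deubiquitinase of the SAGA complex, 11, 76.2 and 28.4, and Usp38 10.5, 89.0 and 17.2. Ubiquitin-conjugating enzymes had 3 of 37 at common sites, Ube2s, Ube2d3 and Ube2n, and 3 at comparison sites. RING and F-box ligases, taken by the symbols Rnf, Trim, Fbxo, Fbxw, Fbxl and Cul, had 4 of 237 at common sites and 24 at comparison sites, or 14.3% (4.0 to 32.7). The proteasome had 0 of 51 genes at common sites and 8 at comparison sites (0 of 8, interval 0 to 36.9).

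The list of immediate-early and Krüppel-like factors had common sites at 7 of 49 genes and comparison sites at 10. The common sites were at Atf2, Klf6, Klf13, Btg1, Klf10, Klf2 and Klf7. Taken by symbol, the list also counts genes that are not such transcription factors, Btg1 at a common site and Btg2 and Atf7ip at comparison sites. Btg1, an antiproliferative cofactor, scored 10.6, 83.1 and 17.6, and Klf2, a factor of quiescence in lymphocytes, 6.97, 82.9 and 12.8. Egr1 and Fos, the classical serum-induced genes, were at comparison sites, where Egr1 scored 47.6 and 9.23 in CD93-negative replicates 1 and 2 and Fos 17.5 and 5.7. Zfp genes had 6 of 397 at common and 19 at comparison sites, and Zfp367 scored highest of the 6 in CD93-positive replicate 2, at 15.9.

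Signalling genes were represented at several levels. MAP kinase genes had 5 of 78 at common sites and 11 at comparison sites, with Map3k2 at 12.5, 66.7 and 11.9 and Mapk8, the kinase JNK1, at 9.96, 45.2 and 12.6. The JAK-STAT and cytokine receptor list had 3 of 75 at common and 4 at comparison sites. Its common sites were Stat3 and the interferon receptor genes Ifnar1 (6.94, 68.9 and 10.2) and Ifngr1 (5.57, 43.7 and 17.3). Jak1 was at a comparison site. Protein phosphatases, an added list, had 10 of 93 at common and 11 at comparison sites, among them the catalytic subunits Ppp1cb (10.6, 113 and 12.2), Ppp2ca, Ppp3ca and Ppp6c. The added LKB1, AMPK and mTORC1 list had 5 of 43 at common sites and 11 at comparison sites. Stk11, the gene of LKB1, the kinase upstream of AMPK, scored 8.30, 72.3 and 19.97. Mtor itself was at a comparison site.

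Membrane traffic and lipid genes followed. Rab GTPases had 5 of 59 at common and 10 at comparison sites, and Rab1a, Rab8a (15.2, 114.3 and 23.0) and Rab22a (14.4, 78.3 and 19) led them. Coat, sorting and SNARE genes had 8 of 214 at common sites and 32 at comparison sites, with Sec16a, the organiser of endoplasmic reticulum exit sites, at 13.8, 64.2 and 26.8. The added sterol synthesis list had 6 of 28 at common and 6 at comparison sites. Acss2, which makes acetyl-CoA, scored 12.3, 59.9 and 12.8, and Hmgcs1, HMG-CoA synthase, 10.7, 69.3 and 14.3. Stard4, Idi1 and Cyp51 were also at common sites, and Cyp51 was near the bottom of CD93-positive replicate 2 at 3.17. Srebf2, the transcription factor that controls these genes, and Sqle were at comparison sites.

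Cell-cycle and chromatin genes gave mixed counts. Cyclins, CDKs and their inhibitors had 6 of 63 at common and 12 at comparison sites, with Ccnyl1 at 19, 140.4 and 17.2, the highest CD93-negative replicate 1 score of all common sites. Mitosis and centromere genes had 6 of 137 and 21, including Fzr1, the CDH1 subunit that activates the APC/C, at 8.65, 136.2 and 23.5, and Hjurp, the chaperone of CENP-A, at 15.2, 80.9 and 31.0. DNA replication had 1 of 48, Pole4, and 10, and DNA repair 2 of 78, Rad23b and Mdc1, and 3. Taken by symbol, these lists also count genes of other functions. Examples at comparison sites are Ercc6l and Parp16 in the repair list and Kif5b and Kif1b in the mitosis list. Histone genes had 5 of 100 and 6. H2az1, the variant H2A.Z, scored 12.8, 81.0 and 11.5, and H2az2 was the other variant gene. H3c6, H3c7 and H4c14 belong to families of near-identical copies, and how reads mapping to several copies were treated is not given in the sources used here, so their sites are uncertain. Histone and DNA modifiers had 3 of 99 at common sites, Kmt2e, Kdm4b and Kat6a, and 18 at comparison sites, among them the Polycomb genes Ezh2, Eed and Suz12. Chromatin remodellers and cohesin had 2 of 48, Ctcf (7.25, 39.5 and 6.24) and Smarca5, and 9.

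Lists of RNA handling and of translation lay on either side of 23.4%, the share of common sites over all genes in either set. Their shares ran from 7.69% for tRNA and rRNA processing to 50.0% for aminoacyl-tRNA synthetases. Cytosolic ribosomal proteins had 4 of 84 at common sites, Rps29, Rps12, Rpl21 and Rps23, and 17 at comparison sites, and mitochondrial ribosomal proteins 2 of 78, Mrpl17 and Mrps14, and 3. The initiation factor list had 3 of 55 and 7, with Eif5, the GTPase-activating factor for eIF2, at 15.9, 101.7 and 20.5. Taken by symbol, that list also counts kinase genes that are not initiation factors, Eif2ak3 at a common and Eif2ak4 at a comparison site. Aminoacyl-tRNA synthetases had 3 of 37, Lars2, Nars2 and Dars, and 3. The median percentile of these common sites in CD93-positive replicate 2 was 5.49. With scores of at least 5, or with lists cut to equal length, 1 synthetase gene had a common site. Splicing factors had 3 of 130 and 19, RNA helicases 1 of 52 and 8, and RNA polymerases with Mediator and TFIID 2 of 99 and 11. Nuclear pore and transport had 2 of 52, Kpnb1 and Xpo1, and 10. The tRNA and rRNA processing list had 1 of 148, Wdr18, and 12. That list was taken by symbol and also holds Wdr genes of other functions. Wdr82, Wdr34, Wdr48 and Wdr41 are such genes among its comparison sites, so its counts do not stand for the function alone. Of the remaining lists, mitochondrial carriers had 2 of 47 and 4, other solute carriers 2 of 328 and 14, autophagy 2 of 36 and 6, and G protein-coupled receptors 1 of 136 and 2.

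Respiratory chain genes had 0 of 98 at common sites and 7 at comparison sites, 0% of 7 with an interval of 0 to 41.0 that spans the 23.4% over all genes in either set. Mitochondrial protein import had 0 of 27 and 3. Olfactory and vomeronasal receptors had 0 of 1480, and keratins and defensins 0 of 180, with 0 comparison sites for both.

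**Figure D4:**
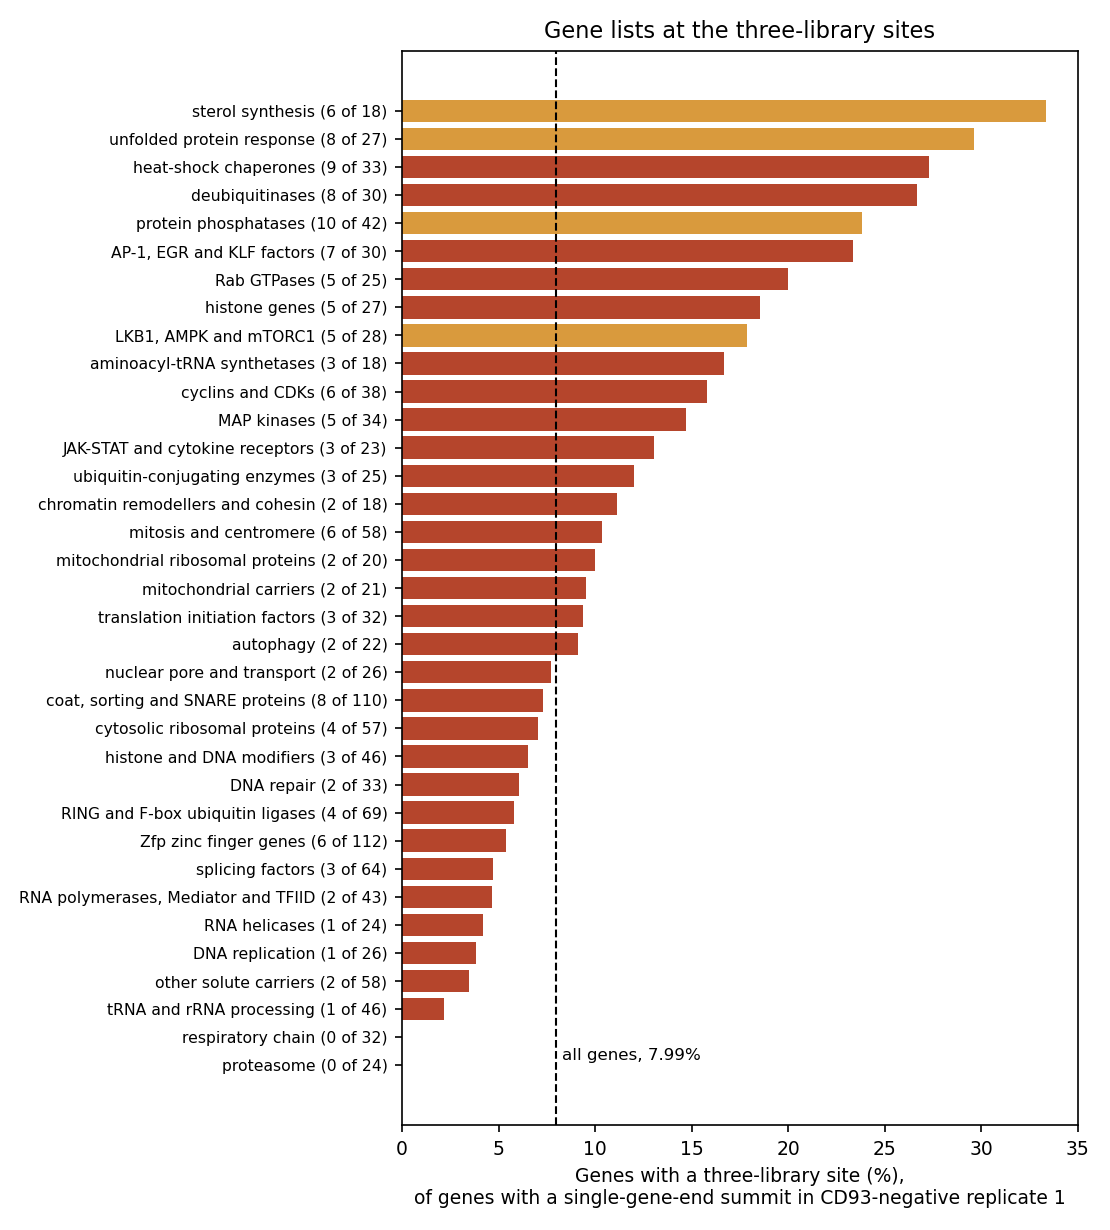
Percent of each list's genes with a single-gene-end summit in CD93-negative replicate 1 that had a common site (x axis), for lists with at least 15 such genes; numbers beside the names are genes with a common site and genes with the summit, orange bars are the 4 lists added after the genes were seen, and the dashed line is 7.99%, the value over all genes. Sterol synthesis, an added list, is highest at 6 of 18, and the respiratory chain and proteasome are at 0 of 32 and 0 of 24. No intervals are drawn, and no list was tested against the line.

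Pooled, the markers of HSCs, of other blood cells and of stroma were at common sites about as often as all genes. The 2 genes found were in the megakaryocyte and erythroid list, and the other marker lists had 0. Over the 6 marker lists 2 of 151 genes had a common site, and of the 25 with a single-gene-end summit in CD93-negative replicate 1 the same 2 did, beside 1.78% and 7.99% over all genes. The HSC identity list had 0 of 37 genes at common sites and 1, Egr1, at a comparison site, with 7 having a single-gene-end summit in CD93-negative replicate 1. Endothelial and stromal markers had 0 of 24 in both sets and in CD93-negative replicate 1. Mature blood cell markers had 0 of 27 and 1 comparison site, Xbp1, myeloid granule markers 0 of 23 and 1, S100a8, and lymphoid markers 0 of 20 and 1, Tcf3. Megakaryocyte and erythroid markers had 2 of 20, Zfpm1, the cofactor FOG1 of GATA1 (7.56, 37.5 and 10.4), and Tfrc, the transferrin receptor (3.53, 45.8 and 11.2), which dividing cells of many kinds express. These gene-end sites therefore do not check the sorted cell type.

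Common sites marked gene starts, a little upstream of them. Strand was known for 328 of the 385, and 327 of these lay at the start. Their median distance to the gene end was 108 bp, against 97 bp at comparison sites, and 326 of the 385 were within 250 bp. Relative to the nearest listed start the median summit was -106 bp in CD93-positive replicate 2, -109 bp in CD93-negative replicate 1 and -120 bp in CD93-negative replicate 2, where a negative value is upstream. At comparison sites it was -50 and -52 bp in the CD93-negative lists. In CD93-negative replicate 1, 85.6% of the common summits (81.3 to 89.2, 280 of 327) were upstream, against 68.8% (65.8 to 71.6, 709 of 1031). The difference was narrower among sites at or above the 90th percentile of that list, where the medians were -121 and -79 bp and the upstream shares 91.5% (87.0 to 94.9) and 81.2% (74.8 to 86.6). Rank moved with position, and its part in the difference was not tested.

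**Figure D5:**
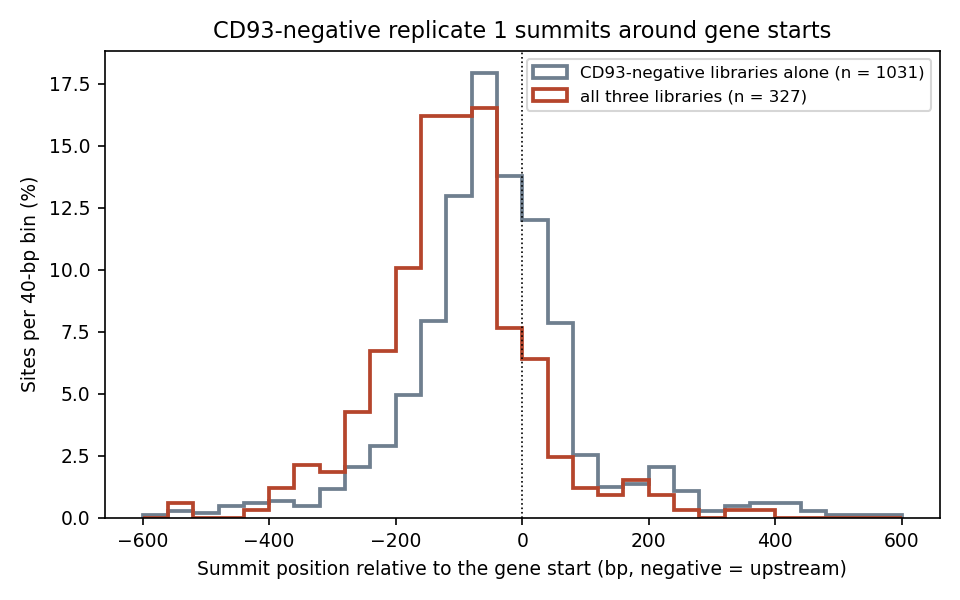
Position of the CD93-negative replicate 1 summit relative to the nearest listed gene start (x axis, bp, negative values upstream) for the 327 common (red) and 1031 comparison sites (grey) at gene starts, as percent of each set per bin (y axis). The red line is shifted to the left, with a median of -109 bp against -50 bp.

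Distances between the summits of a common site were bounded by the rule, which asked for at most 250 bp to each CD93-negative list, and are given as a description. The median distance from the CD93-positive replicate 2 summit was 38 bp to that of CD93-negative replicate 1 and 55 bp to that of CD93-negative replicate 2, and the CD93-negative summits at common sites were 44 bp apart. At comparison sites the CD93-negative summits were 48 bp apart. The same base was the summit in CD93-positive replicate 2 and CD93-negative replicate 1 at 12 sites. Non-coding gene ends lay in the window at 82 common sites, or 21.3% (17.3 to 25.7), and at 18% (15.9 to 20.2) of comparison sites.

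Promoter sequence at both sets was that of CpG islands. Among the 248 common and 726 comparison sites whose summit fell inside a promoter window of 300 bases, the median ratio of observed to expected CpG was 0.889 and 0.853, against 0.574 over all 21044 windows, and 95.6% and 93.5% had a ratio of 0.6 or more, against 48.1%. At or above the 90th percentile of CD93-negative replicate 1 the order of the CpG ratio turned, with medians of 0.887 in common and 0.925 in comparison windows. The shares with a ratio of 0.6 or more were 95.3% and 97.3% there. Over all ranks, median GC content was 67.7% in common, 64.0% in comparison and 56.7% in all windows. The GC box GGGGCGGGG, counted on both strands, was in 41.1% of common windows (34.9 to 47.5), 34.3% of comparison windows (30.8 to 37.9) and 15.5% of all. CCAAT was in 55.2%, 52.6% and 38.5%. The ETS motif CCGGAAGT was in 6.05% (3.42 to 9.78) of common windows, 11.7% (9.46 to 14.3) of comparison windows and 5.2% of all, but in 7.10% and 9.46% of the windows at or above the 90th percentile of CD93-negative replicate 1. The E-box CACGTG was in 10.9%, 12.4% and 7.91%, and the YY1 motif AAGATGGCG in 5.24%, 4.82% and 1.84%.

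Motifs of blood cell factors were in few windows of either set. TGTGGTT of RUNX was in 3.63% of common, 3.03% of comparison and 4.74% of all windows, AGATAAG of GATA in 1.21%, 1.10% and 2.63%, GAGGAAGT of PU.1 in 1.21%, 3.03% and 3.15% and TGANTCA of AP-1 in 3.63%, 3.44% and 7.04%. NRF1 (GCGCATGCG) was in 4.03%, 5.92% and 2.37%, CRE (TGACGTCA) in 2.82%, 4.68% and 2.26%, ZBTB33 (TCTCGCGAG) in 2.42%, 2.07% and 0.974%, THAP11 (ACTACANTT) in 2.82%, 2.07% and 1.82% and the TATA box TATAAA in 3.63%, 6.06% and 12.7%. Matches were counted on both strands, and a window counts once however many matches it holds; matches of different motifs may overlap. At or above the 90th percentile of CD93-negative replicate 1, PU.1 was in 1.78% of common and 0.676% of comparison windows, which turns the direction, on 3 and 1 windows. There the E-box was in 13.0% and 18.2%, and THAP11 in 1.78% and 0% (0 of 148, upper limit 2.46%).

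Common sites lay on all 20 chromosomes searched, with the highest shares of genes on chromosome 12 (23 genes, 3.39%), chromosome 10 (32, 3.20%) and chromosome 13 (25, 3.02%), and the lowest on X, 1 gene of 966 (0.104%), at the ubiquitin ligase gene Siah1b, whose symbol is not among those of the ligase list, and chromosome 7 (16, 0.788%). Comparison sites were at 13 X-linked genes (1.35%). Genes with common sites had a median length of 29983 bp, those with comparison sites 25202 bp and all genes 17330 bp.

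Comparison sites of highest rank show which strong CD93-negative sites had no CD93-positive replicate 2 summit nearby. Slc35e1, a solute carrier, scored 92.9 and 27.6 in CD93-negative replicates 1 and 2, and the nearest CD93-positive replicate 2 summit was 71221 bp away. Ccnt2, a cyclin of the elongation kinase P-TEFb, scored 85.1 and 26.8, Gins2, of the replicative helicase, 80.4 and 25.2, and Eif5a, the hypusinated translation factor, 91.1 and 21.0. Kifc1, a mitotic kinesin, scored 105.6 and 21.0, above the median common site in both lists. Ccnt1, the paralogue of Ccnt2, was by contrast at a common site, at 8.89, 68.4 and 10.7, lower in both CD93-negative lists than Ccnt2.

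Sites close to the limits of the rule show what it separates. Just inside the window of 1000 bp were Npm1 at 967 bp and Zzz3 at 962 bp, and just outside it Ppm1b at 1009 bp and Trim45 at 1020 bp. Just inside the sharing distance of 250 bp were Scaf8 at 248 bp and Zswim6 at 244 bp, and just outside it Clcn3 and Tubb4b, both at 256 bp. Of the 470 single-gene-end summits of CD93-positive replicate 2, 85 were not common sites, of which 77 were near a CD93-negative replicate 1 summit alone, 4 near a CD93-negative replicate 2 summit alone and 4 near neither. Without CD93-negative replicate 2, the longer CD93-negative list alone gave 462 common sites and 4389 comparison sites. With a minimum score of 10 the numbers were 120 and 710.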

How the data were processed

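ATAC-seq was measured in 4 libraries, and each deposited file lists the summits of 1 library by position with a score. Bowtie2, MACS2 and the build mm10 were used, per the submitters' processing notes. Tool versions, the handling of reads and the peak threshold were not given in the sources used here. As for units, the authors' deposited score was read as the −log10 of MACS2's p or q, and which one was not stated. Groups and replicate numbers follow the sample titles, although the numbers inside the summit names are others in 3 of the 4 lists, so a replicate number only names a list. Gene ends were read from RefSeq annotation of GRCm38.p6 that carries no strand, and strand and sequence from a RefSeq promoter table covering 17273 of 21627 genes. Python 3.11.15, numpy 2.4.6, pandas 2.3.3, scipy 1.17.1 and matplotlib 3.10.9 were used, and the scripts were tested on simulated data. The members and lists were chosen with earlier results of these data known, and 4 lists were added after the genes were seen. Genes were named by rule: the 10 highest in CD93-positive replicate 2, the 10 with the highest lowest percentile, the 5 with the greatest rank difference each way, up to 4 per list, the 10 highest comparison sites, those at the limits and those near CD93-positive replicate 1. Genes given to fill out a list were chosen after their values were seen. Alternatives were other sharing distances, windows and score minimums, equal list lengths, merged summits, gene starts only and leaving out a library. Some genes at these sites are not reported here.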

Additional observations from a re-analysis of the deposited data

How the results depend on the processing

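The number of common sites was 385 and that of comparison sites 1261. Scores of at least 10 gave 120 and 710. Cutting each CD93-negative list from the top to the length of the CD93-positive replicate 2 list gave 165 and 86. The median percentiles were 67.5, 71.7 and 67.8 over the common sites left, and 53.9, 93.9 and 79.2 over all 385. Asking for a CD93-positive replicate 1 summit as well left 1 common site. Leaving out CD93-negative replicate 1 or 2 gave 389 to 462 common sites and 1354 to 4389 comparison sites. Under the remaining alternatives both counts were within 1.5 times the reported ones, so that 20 of 26 counts were. Of 351 counts of list genes under the alternatives, 262 were within 1.5 times and 89 were not, and most lists hold few genes. The cause was not tested, beyond the shorter lists that a score minimum or equal lengths give by construction. The comparison of upstream shares and motifs at high ranks was chosen after seeing the data. No paired analysis was possible because the results are counts and descriptions of single libraries, with no fit over samples. Read depth is unknown, so a site missing from a list is not shown to be closed.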
